A study of Mus musculus with 9 samples.

Results

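Homozygous loss of Smarca4 in mouse lung tumours was described across the whole transcriptome from 3 KPS libraries and 4 KP libraries, which are 7 of the 9 libraries of the study. The 2 other libraries (KPS-HET) entered the same fit and are shown only where they add to the comparison. KPS tumours carried 2 floxed Smarca4 alleles (Smarca4fl/fl), KPS-HET tumours 1, and KP tumours none (Smarca4+/+). All groups carried 2 floxed Trp53 alleles (Trp53fl/fl) and the reporter allele Rosa26LSL-TdTom, on a mixed B6;129S2 background. An adenovirus carrying Cre under the CCSP promoter, instilled into the trachea, started the tumours and directs recombination to club cells of the airway. Cancer cells were sorted by FACS from lungs of moribund mice, by a gate that is not given, and the age of the mice is not given. Whether each library is its own mouse is not stated, and p-values rest on the spread among these libraries, which may be technical. All genes were members: the table held 23224 gene symbols, of which 15663 passed the filter on low counts and were tested. Levels below are TMM-scaled CPM, each count divided by the scaled library total, given library by library in the order of the replicate numbers, and a gene was called where the adjusted p of edgeR's quasi-likelihood test lay below 0.05.

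Smarca4 encodes BRG1, an ATPase that drives the BAF complex, which slides and evicts nucleosomes at enhancers and promoters. BAF complexes are recruited by sequence-specific factors and can open chromatin for genes that are to be activated or keep others closed, and SMARCA4 is often inactivated in human lung adenocarcinoma. Gene programmes are described here as whole families or pathways, among them NF-kB and JAK-STAT signalling, in which cytokine and Toll-like receptor signals release latent transcription factors into the nucleus.

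Depth lay between 21368900 and 37114400 estimated counts in the KPS libraries and between 15275300 and 29231600 in the KP libraries. Calls of cell type markers stand beside 3.96% of all genes called higher and 3.28% lower. Of 11 markers of lung epithelium, 3 had a positive and 8 a negative fold change, with Cdh1 called higher and Nkx2-1 and Sftpb lower. Their summed level was 22451, 45112 and 39780 CPM in KPS against 59839, 84491, 58440 and 54967 CPM in KP, with no overlap. In every library but KPS replicate 1, most of that sum was Sftpc (surfactant protein C). Sftpc was not called, with 9915, 33310 and 27513 CPM in KPS against 47558, 70280, 42968 and 39261 CPM in KP (adjusted p 0.126). Epcam, a surface protein of epithelium at large, overlapped, at 766, 827 and 699 CPM in KPS against 693, 663, 842 and 876 CPM in KP. RNA of other cells was uneven. Of 23 markers of macrophages and monocytes, 20 had a positive fold change, with a median log2 fold change of 3.24. In 13 of the 23 all KPS libraries lay above all KP libraries, which 11.7% of all genes had. Called higher by edgeR were 3 (13%), Marco, Ctss and Chi3l3. DESeq2 called 14 higher, limma-voom 0, and edgeR 0 to 8 over fits without a single library. The summed level of these markers without Lyz1 and Lyz2, which are high in all libraries, was 6893, 633 and 1737 CPM in KPS against 347, 186, 234 and 340 CPM in KP, so KPS replicate 1 stood apart. Without that replicate Marco, Ctss and Chi3l3 were not called (adjusted p 0.157, 0.131 and 0.152). Markers of T and NK cells summed to between 6.18 and 19.6 CPM in KPS and between 4.23 and 7.56 CPM in KP. When the macrophage level without Lyz1 and Lyz2 was added to the fit as a term, 388 genes were called in place of 1134, and of the 225 called genes checked one by one 89 kept their call. Of 9 neutrophil markers tested, 7 had a positive fold change and only Ltf was called. Neutrophil markers summed to 1567, 7759 and 11510 CPM in KPS against 138, 142, 453 and 363 CPM in KP. In the KPS libraries nearly all of that sum was Ltf. Red cell markers summed to 73.8, 61.9 and 51.8 CPM in KPS against 8.70, 1.87, 11.8 and 5.42 CPM in KP. Of 4 mesothelial markers, 2 had a positive and 2 a negative fold change and only Msln was called. Of 12 endothelial markers, 11 had a positive fold change and 1 was called, with sums of 92.7, 62.8 and 183 CPM in KPS against 99.4, 111, 81.1 and 124 CPM in KP. Of 11 fibroblast markers tested, 10 had a positive fold change and 2 were called higher. Fibroblast markers summed to 810, 1078 and 1132 CPM in KPS against 394, 394, 926 and 473 CPM in KP, with overlap. The added term, the mean log2 level of these macrophage markers, was 6.23, 3.13 and 4.15 in KPS against 2.64, 2.21, 2.36 and 2.83 in KP. It did not overlap between the groups, so that fit cannot fully separate macrophage RNA from genotype. A call lost in it therefore does not show where the RNA came from. The part of these cells in the results was not otherwise tested. In bulk samples fewer cells of a type and less RNA per cell cannot be told apart.

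Smarca4 itself had 55.5, 39.9 and 47.6 CPM in KPS libraries against 137, 124, 132 and 110 CPM in KP libraries, with 76.4 and 97.2 CPM in the KPS-HET libraries. The KPS and KP values did not overlap. The log2 fold change was -1.40 ± 0.15 (SE, adjusted p 0.0021), and it was called in all 16 alternative fits. The counts are per gene and do not separate the floxed part from the rest of the transcript. Trp53 had 18.9, 7.96 and 18.3 CPM in KPS against 7.44, 8.67, 11.0 and 14.0 CPM in KP (adjusted p 0.385).

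Across all genes the change ran in both directions in similar numbers. Of 15663 genes, 621 were called higher in KPS (3.96%) and 513 lower (3.28%), with a median log2 fold change over all tested genes of 0.01. At an unadjusted p below 0.05 there were 3807 genes. Of the called genes, 392 were more than 2-fold higher and 317 more than 2-fold lower, and 195 and 141 passed 4-fold in those directions. By mean level, 14 genes were called higher and 3 lower below 1 CPM, 122 and 70 from 1 to 10 CPM, 316 and 338 from 10 to 100 CPM, 158 and 99 from 100 to 1000 CPM, and 11 and 3 at 1000 CPM or more. As a description of the chosen genes, those called higher took 15.3%, 14.7% and 15.0% of counts in KPS libraries, 6.53% and 8.91% in KPS-HET libraries, and 5.61%, 5.77%, 7.09% and 7.12% in KP libraries. The genes called lower took 2.82%, 2.75% and 2.76% in KPS, 5.23% and 5.08% in KPS-HET, and 6.21%, 5.87%, 6.60% and 5.88% in KP. Among the genes called higher, the highest value lay in KPS replicate 1 for 257 genes, in replicate 2 for 145 and in replicate 3 for 219. These genes were chosen by the same contrast, so the counts only describe that choice. Leaving out 1 library lowered the calls to between 251 and 466 higher and between 248 and 420 lower.

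**Figure D1:**
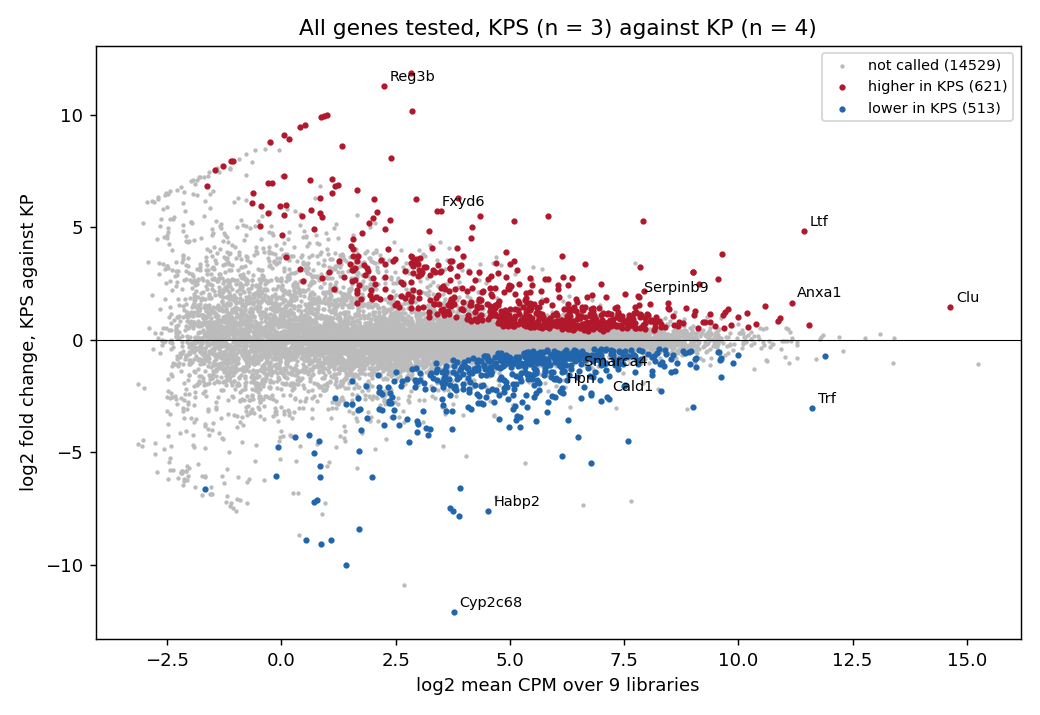
Log2 fold change of KPS against KP (y axis) by log2 mean CPM over all 9 libraries (x axis), 1 point a gene, with called genes coloured. The 621 genes called higher include Clu at the abundant end and the 513 called lower include Trf; fold changes of genes at 0 in one group depend on the prior count.

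Among 50 programmes, the components of NF-kB and JAK-STAT signalling had the highest share of members called higher. The lists were written with earlier results of these data known, so this rank is a description only. All 64 listed genes were tested; 13 were called higher (20.3%, against 3.96% of all genes), 1 lower and 50 in neither direction. The median log2 fold change was 0.43, and 25 of the 64 genes had KPS libraries all above KP libraries, which 11.7% of all genes had. The summed level of the list was 3766, 3940 and 3998 CPM in KPS libraries against 2940, 3157, 3144 and 3104 CPM in KP libraries, with no overlap. The promoters of 3 called members are shown, 2 inhibitors and 1 subunit, as examples of the 5 that hold a letter match to the binding motif of the pathway's own factors; Myd88 and Bcl3 hold 1 match each and are not shown. They are RefSeq windows (GRCm38.p6) from 250 bases before to 50 bases after the start, written along the gene's strand, with matches in capitals: Tnfaip3 (chr10:19015361-19015660, minus strand, 2 matches to the kappaB consensus), Socs3 (chr11:117969317-117969616, minus strand, 1 match to TTCNNNGAA, the STAT motif) and Nfkb2 (chr19:46304487-46304786, plus strand, 1 STAT match and 3 kappaB matches, 2 of which overlap).
Tnfaip3: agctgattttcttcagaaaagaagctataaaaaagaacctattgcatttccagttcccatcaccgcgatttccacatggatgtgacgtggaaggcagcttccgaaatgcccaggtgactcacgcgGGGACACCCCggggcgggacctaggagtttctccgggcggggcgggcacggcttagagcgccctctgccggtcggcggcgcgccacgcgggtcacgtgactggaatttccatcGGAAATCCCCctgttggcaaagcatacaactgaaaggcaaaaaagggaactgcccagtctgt
Socs3: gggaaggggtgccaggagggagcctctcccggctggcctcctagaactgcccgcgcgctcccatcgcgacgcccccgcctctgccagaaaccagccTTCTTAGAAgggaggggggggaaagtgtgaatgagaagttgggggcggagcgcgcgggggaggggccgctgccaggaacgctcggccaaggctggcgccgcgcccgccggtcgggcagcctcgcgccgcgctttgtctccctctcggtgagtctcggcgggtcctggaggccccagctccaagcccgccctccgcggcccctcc
Nfkb2: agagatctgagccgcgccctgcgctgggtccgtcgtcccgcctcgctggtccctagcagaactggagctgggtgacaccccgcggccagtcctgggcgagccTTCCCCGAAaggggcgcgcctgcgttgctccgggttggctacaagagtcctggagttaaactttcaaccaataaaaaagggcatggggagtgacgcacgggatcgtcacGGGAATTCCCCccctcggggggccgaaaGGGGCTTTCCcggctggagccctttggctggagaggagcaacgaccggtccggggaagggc

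Of the 13 members called higher, 12 had such a window. A STAT match on either strand was present in 3 of the 12 (25%, against 8.47% of all 27025 RefSeq windows of the same length) and a kappaB match in 3 of the 12 (25%, against 4.35%). The AP-1 motif TGANTCA was in 2 (16.7%, against 7.93%), the TEAD motif GGAATG in 2 (16.7%, against 14.6%), the E-box CACGTG in 1 (8.33%, against 7.24%) and TATAAA in 2 (16.7%, against 14.2%). These are letter matches in a short window and do not show binding. The 12 genes were chosen as called members of this pathway list, and its uncalled members were not compared. The shares therefore do not bear on the change in KPS.

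At the receptor end, Osmr, the specific chain of the oncostatin M receptor, had 58.8, 43.8 and 37.2 CPM in KPS libraries against 16.7, 16.8, 18.1 and 9.17 CPM in KP libraries. Every KPS value was above every KP value, and the log2 fold change was 1.62 ± 0.26 (adjusted p 0.0082). Its signalling partner Il6st (gp130) had 93.7, 89.9 and 93.1 CPM in KPS against 64.3, 57.2, 61.0 and 53.8 CPM in KP, a smaller rise of 0.64 ± 0.11 on the log2 scale (adjusted p 0.0116). Lifr, the leukaemia inhibitory factor receptor, overlapped between the groups (16.3, 56.3 and 37.8 CPM in KPS against 17.1, 41.7, 40.3 and 13.0 CPM in KP). Downstream of these receptors, the kinase gene Jak1 had 154, 127 and 161 CPM in KPS against 99.3, 96.5, 92.7 and 94.1 CPM in KP (0.62 ± 0.11 on the log2 scale, adjusted p 0.0129). Stat3 had 253, 300 and 268 CPM in KPS against 169, 225, 186 and 172 CPM in KP (adjusted p 0.0326), and Jak2 was called higher as well (adjusted p 0.0425). The feedback inhibitor Socs3 had 146, 181 and 175 CPM in KPS against 65.4, 87.3, 104 and 58.7 CPM in KP. That is a log2 fold change of 1.08 ± 0.20 (adjusted p 0.0146). Socs1 and Tyk2 were not called and overlapped between the groups.

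On the NF-kB side, Myd88, the adaptor of Toll-like and interleukin 1 receptors, had 73.2, 98.0 and 71.0 CPM in KPS libraries against 36.9, 31.1, 38.2 and 35.8 CPM in KP libraries, a log2 fold change of 1.18 ± 0.15 (adjusted p 0.0033). Tnfaip3 (A20), a ubiquitin-editing inhibitor of the pathway that is also one of its targets, had 86.5, 56.8 and 93.8 CPM in KPS against 17.5, 30.4, 30.5 and 23.7 CPM in KP, a log2 fold change of 1.63 ± 0.25 (adjusted p 0.0073). In both genes the groups were far apart in all 7 libraries. Of the DNA-binding subunits, Nfkb2 rose, with 109, 92.1 and 108 CPM in KPS against 47.6, 66.0, 62.4 and 57.6 CPM in KP (0.82 ± 0.16, adjusted p 0.016). Nfkb1, Rela, Relb and Rel were not called; Rela had 147, 143 and 149 CPM in KPS against 121, 133, 169 and 134 CPM in KP. Map3k14 (NIK), the kinase that triggers processing of the Nfkb2 product, had 12.4, 13.9 and 11.1 CPM in KPS against 6.68, 3.73, 4.65 and 3.78 CPM in KP (adjusted p 0.0305). The IkB family member Bcl3 (adjusted p 0.0174) and the ubiquitin ligase gene Birc3 (adjusted p 0.022) were also called higher. The kinase subunits Chuk, Ikbkb and Ikbkg were not called. The single member called lower was the adaptor Traf4, with 62.3, 80.5 and 62.9 CPM in KPS against 95.7, 109, 92.6 and 115 CPM in KP (-0.59 ± 0.14, adjusted p 0.0356).

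The count of NF-kB and JAK-STAT components called higher was 8, 8 and 4 without KPS replicates 1, 2 and 3, and 9, 13, 12 and 9 without KP replicates 1, 2, 3 and 4. It was 6 with the added macrophage term, 22 with DESeq2 and 18 with limma-voom, with medians between 0.35 and 0.50 in all of these fits. Myd88 and Tnfaip3 were called in all 16 alternatives, and Osmr in all but the added macrophage term (adjusted p 0.0593). Without KPS replicate 3, Il6st, Jak1, Socs3 and Nfkb2 lay just past the threshold (adjusted p 0.0514, 0.0632, 0.0562 and 0.0667), Nfkb2 also without KPS replicate 1 (0.0531), and Bcl3 without KPS replicate 2 (0.0565). Birc3, Stat3, Jak2, Map3k14 and Traf4 each lost their call when any 1 of at least 4 libraries was left out.

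**Figure D2:**
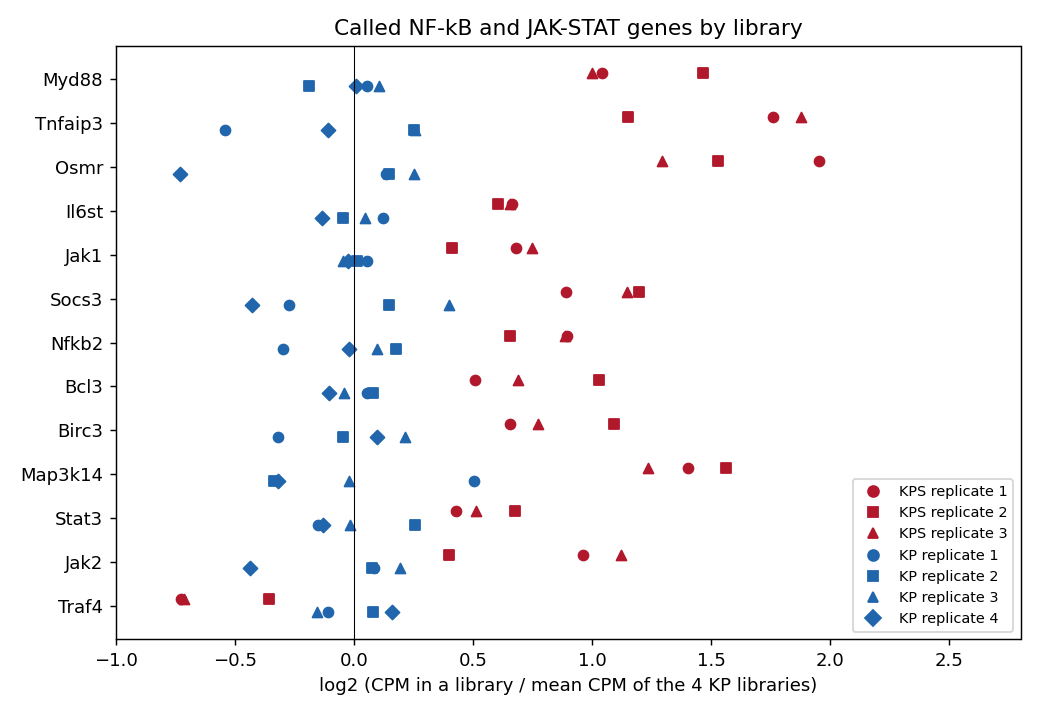
Log2 ratio of the CPM in a library to the mean of the 4 KP libraries (x axis) for 13 of the 14 called NF-kB and JAK-STAT genes (y axis), with KPS libraries in red above KP libraries in blue. For the 12 genes called higher that are shown, all KPS points lie to the right of all KP points, and for Traf4 they lie to the left.

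Among called genes without overlap between the groups, ranked by the change in mean CPM, the gains were led by secreted and surface products. Clu (clusterin), a secreted chaperone, had 45356, 45175 and 35296 CPM in KPS libraries against 9451, 11695, 22188 and 18532 CPM in KP libraries. It was the largest gain in CPM among these genes, with a log2 fold change of 1.44 ± 0.31 (adjusted p 0.0256). Ltf (lactoferrin), an iron-binding defence protein of mucosal epithelium and neutrophils, had 1493, 7730 and 11450 CPM in KPS against 93.6, 99.0, 436 and 335 CPM in KP. Anxa1, a phospholipid-binding protein, was the most even of the gains, with 4359, 3822 and 4091 CPM in KPS against 1064, 1417, 1342 and 1405 CPM in KP (1.65 ± 0.19, adjusted p 0.0027). Hp (haptoglobin), which binds free haemoglobin, had 3575, 2105 and 2221 CPM in KPS against 579, 1185, 1110 and 883 CPM in KP. The tetraspanin gene Cd9 had 2672, 2479 and 3286 CPM in KPS against 1300, 1324, 1477 and 1734 CPM in KP. Msln (mesothelin), Ctsh (cathepsin H) and Chi3l3, a macrophage-rich chitinase-like protein, completed the gains.

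The losses, ranked in the same way, were led by Trf (transferrin), the iron carrier, with 717, 559 and 617 CPM in KPS libraries against 5109, 5432, 7270 and 2811 CPM in KP libraries. The highest KPS value was below the lowest KP value by a wide margin, and the log2 fold change was -3.03 ± 0.29 (adjusted p 0.0013). Gstm1, a glutathione transferase, had 367, 242 and 431 CPM in KPS against 813, 871, 1064 and 1615 CPM in KP (-1.65 ± 0.27, adjusted p 0.0091). The fatty acid transporter gene Cd36 had 263, 409 and 279 CPM in KPS against 729, 568, 812 and 817 CPM in KP (-1.21 ± 0.20, adjusted p 0.0084). Egr1, an immediate early transcription factor, had 487, 790 and 554 CPM in KPS against 1131, 1164, 1402 and 1233 CPM in KP. Gkn2 (gastrokine 2) fell most unevenly, with 223, 15.0 and 68.8 CPM in KPS against 715, 570, 890 and 1074 CPM in KP. Sftpb (surfactant protein B), Anxa4 and Mgst1 made up the rest. Anxa1, Cd9, Trf and Gstm1 were called in every alternative, Hp and Cd36 in all but the added macrophage term (adjusted p 0.135 and 0.0626), Egr1 not without KPS replicate 3 (0.0553) and Ltf not without KP replicate 1 or 2 (0.0535 and 0.0506). Clu, Chi3l3, Ctsh and Sftpb lost their call when any 1 of 6 libraries was left out, Gkn2 of 5, Anxa4 of 4, and Msln and Mgst1 of 3. The fold changes of Ltf, Chi3l3 and Gkn2 moved most, to 4.22 without KPS replicate 3 for Ltf, and to 2.46 and -4.31 without KPS replicate 1 for Chi3l3 and Gkn2, against 4.84, 3.81 and -2.99 with all libraries.

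**Figure D3:**
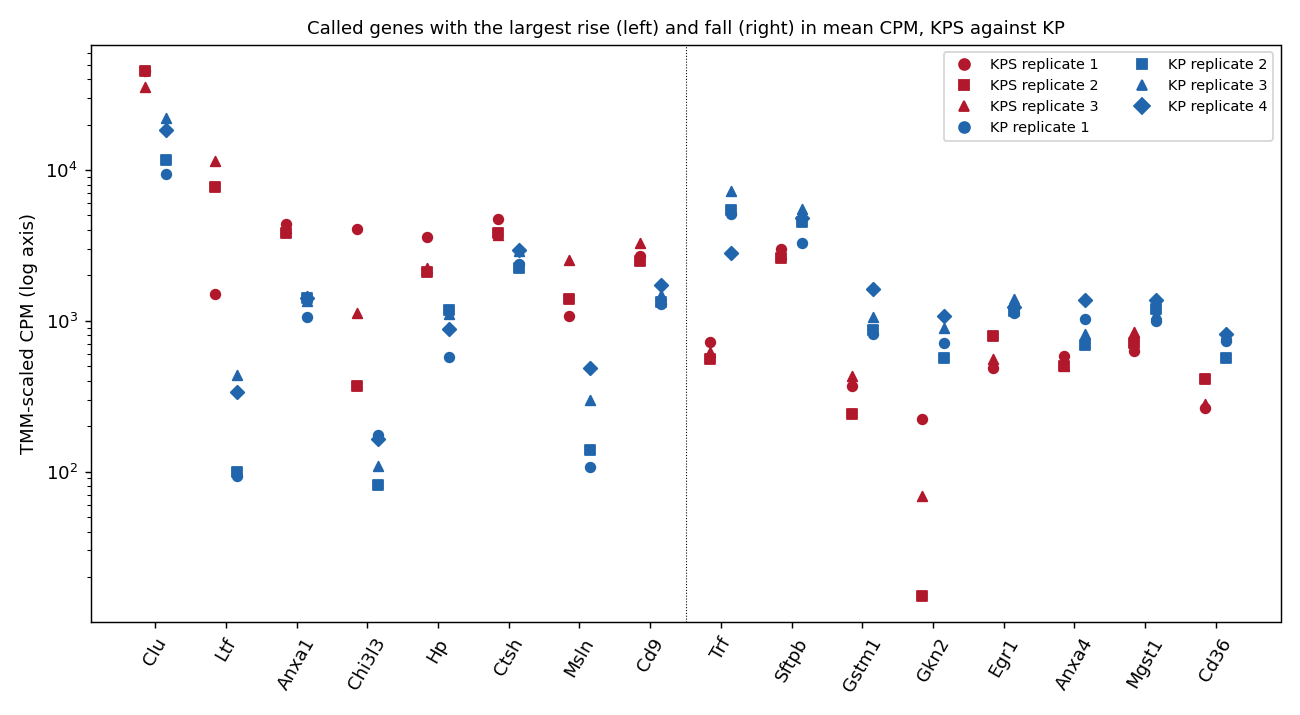
TMM-scaled CPM per library (y axis, log scale) of the 8 called genes with the largest rise and the 8 with the largest fall in mean CPM (x axis), KPS in red left of KP in blue. Anxa1 and Cd9 are tight within groups, while Ltf, Chi3l3 and Gkn2 spread widely among the 3 KPS libraries.

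The genes described next were picked for the smallest p in this contrast, above a floor of 5 CPM on the mean level. Their abundance and the separation of the groups therefore reflect that choice. Spread within groups was not small for all of them, as Fxyd6 ran from 0.126 to 0.945 CPM in KP. Serpinb9, an intracellular inhibitor of granzyme B, had 499, 450 and 386 CPM in KPS libraries against 98.6, 124, 140 and 115 CPM in KP libraries (1.90 ± 0.15, adjusted p 0.001), and the related Serpinb6b had 208, 195 and 201 CPM in KPS against 85.4, 97.7, 88.9 and 98.4 CPM in KP. Fxyd6, a regulator of the sodium pump, had 27.7, 18.7 and 45.4 CPM in KPS against 0.126, 0.542, 0.631 and 0.945 CPM in KP (5.71 ± 0.59). Adamtsl4, a matrix protein, Apbb3, an adaptor of the amyloid precursor protein, Cda, which deaminates cytidine, Naaa, a lysosomal amidase, and Eps8l1, an actin regulator, followed with log2 fold changes between 1.38 and 2.45. Among genes that fell, Hpn (hepsin), a membrane serine protease, had 22.2, 18.7 and 25.3 CPM in KPS against 91.0, 107, 105 and 92.5 CPM in KP (-2.16 ± 0.14, adjusted p 0.00045). Cald1 (caldesmon), an actin-binding regulator of contraction, had 35.2, 23.8 and 45.3 CPM in KPS against 219, 187, 183 and 221 CPM in KP. Tcf7l1 (TCF3), a transcriptional repressor in WNT signalling, had 18.7, 15.1 and 19.4 CPM in KPS against 63.6, 56.6, 64.6 and 52.9 CPM in KP. Pbld2, Apoc1, an apolipoprotein, Adora1, an adenosine receptor, and Sgpp2, a sphingosine-1-phosphate phosphatase, had log2 fold changes between -3.43 and -2.45. All of these genes were called in all 16 alternatives.

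A few genes were at 0 in every library of one group and at 1 CPM or more in every library of the other. There were 6 such genes with KP at 0. Reg3b and Reg1, secreted C-type lectins of gut and pancreas, had 9.36, 14.2 and 18.99 CPM and 3.50, 43.0 and 18.1 CPM in the KPS libraries. The homeobox gene Nkx2-3 had 1.10, 5.00 and 11.8 CPM, Neurod1, a neuroendocrine transcription factor, 2.26, 6.94 and 3.68 CPM, Sst (somatostatin) 5.62, 3.06 and 3.33 CPM, and Blnk, a B cell adaptor, 3.03, 2.57 and 2.76 CPM in KPS. Set against 3 counts summed over all 4 KP libraries, these are at least 135-fold higher for Nkx2-3, 101.4-fold for Neurod1, 113-fold for Sst and 74.2-fold for Blnk. The 4 genes with KPS at 0 included Cyp2c68, a cytochrome P450 (11.0, 4.64, 69.6 and 17.2 CPM in KP), Cym (chymosin) and the potassium channel subunit gene Kcnf1. On the same kind of floor over the 3 KPS libraries, KPS was at least 662-fold lower for Cyp2c68, 150-fold for Cym and 72.5-fold for Kcnf1. The lowest bound with 1 library left out was 65.7 for Nkx2-3 (without KPS replicate 3), 64.5 for Neurod1, 71.6 for Sst and 47.1 for Blnk (each without KP replicate 4), 323 for Cyp2c68 (without KP replicate 3), and 81.8 for Cym and 39.4 for Kcnf1 (each without KPS replicate 1). Nkx2-3 was not called without KPS replicate 3 (adjusted p 0.0641), nor Cyp2c68 and Kcnf1 with the added macrophage term (0.0719 and 0.0565), nor Reg1, Nkx2-3 and Cyp2c68 with limma-voom.

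In lipid and membrane metabolism, 7 of 53 sphingolipid and phospholipid remodelling genes were called higher (13.2%, against 3.96% of all genes) and 2 lower (3.77%, against 3.28%), with a median of 0.18. With the added macrophage term 2 were called higher and 1 lower. Ugcg, which makes glucosylceramide, the first glycosphingolipid, had 193, 266 and 202 CPM in KPS libraries against 89.0, 116, 68.2 and 119 CPM in KP libraries (1.17 ± 0.21, adjusted p 0.0114). Lpgat1, an acyltransferase of lysophospholipids, had 218, 256 and 255 CPM in KPS against 104, 158, 97.3 and 147 CPM in KP. Galc, a lysosomal enzyme that removes galactose from ceramide, Sgpp1, Agpat4 and Smpdl3a were also called higher. The sphingosine-1-phosphate phosphatases went in opposite directions: Sgpp1 had 44.5, 44.2 and 39.4 CPM in KPS against 25.7, 27.5, 26.2 and 31.3 CPM in KP, whereas Sgpp2 had 11.6, 10.4 and 17.5 CPM in KPS against 100.7, 73.2, 112 and 77.6 CPM in KP. The ceramide synthase gene Lass3 was the other one called lower. Ugcg and Sgpp2 were called in all alternatives, Lpgat1 not without KPS replicate 3 (adjusted p 0.0525), and the other 6 lost their call when any 1 of at least 4 libraries was left out; the list held 1 to 4 genes called higher when a single library was left out.

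Of 36 ABC transporters, 4 were called higher (11.1%, against 3.96% of all genes) and none lower by edgeR, with a median of 0.27; DESeq2 called 8 higher and 2 lower, and none was called with the added macrophage term. Abca1, the cholesterol exporter, had 63.8, 40.6 and 70.4 CPM in KPS libraries against 24.96, 18.1, 21.1 and 29.1 CPM in KP libraries (1.32 ± 0.22, adjusted p 0.0092). Abcc1, an exporter of glutathione conjugates, had 61.3, 60.4 and 91.0 CPM in KPS against 14.8, 17.5, 26.7 and 32.6 CPM in KP, and Abca2 and the peroxisomal Abcd2 were called with smaller margins. The 276 solute carriers were near the background in both directions, with 9 called higher (3.26%) and 11 lower (3.99%). Slc16a12, a carrier of the monocarboxylate family, had 15.2, 11.7 and 6.97 CPM in KPS against 60.5, 38.1, 82.5 and 64.6 CPM in KP (-2.44 ± 0.33, adjusted p 0.004), and the chloride carrier gene Slc26a9 had 95.5, 135 and 96.9 CPM in KPS against 237, 203, 287 and 199 CPM in KP. Abca1 and Slc26a9 kept their calls without any single library but not with the added macrophage term (adjusted p 0.101 and 0.0734). Abcc1 lost its call without KPS replicate 3, KP replicate 1 or KP replicate 2 (0.0754, 0.0548 and 0.0562), Abca2 when any 1 of 3 libraries was left out and Abcd2 when any 1 of 7 was left out.

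In central metabolism single enzymes are described. Of 36 citric acid cycle and pyruvate entry genes, 2 were called higher (5.56%, against 3.96% of all genes) and 1 lower (2.78%, against 3.28%). Idh3a, the catalytic subunit of mitochondrial isocitrate dehydrogenase, had 114, 136 and 111 CPM in KPS libraries against 56.2, 55.6, 59.5 and 60.6 CPM in KP libraries (1.05 ± 0.12, adjusted p 0.0023). Of 45 genes of fatty acid oxidation and the peroxisome, 3 were called higher (6.67%) and 2 lower (4.44%). Phyh, which starts the oxidation of branched-chain fatty acids, had 132, 188 and 262 CPM in KPS against 25.7, 46.2, 65.6 and 68.0 CPM in KP. Catalase (Cat), the peroxisomal enzyme that breaks down hydrogen peroxide, had 214, 155 and 175 CPM in KPS against 430, 450, 640 and 466 CPM in KP (-1.45 ± 0.19, adjusted p 0.0034). Of 36 nucleotide synthesis genes, 2 were called higher (5.56%) and 2 lower (5.56%). Cda, called higher, had 49.1, 37.6 and 54.9 CPM in KPS against 11.0, 12.4, 12.3 and 13.6 CPM in KP. Of 40 genes of arachidonic acid and prostaglandin metabolism, 3 were called lower (7.5%, against 3.28% of all genes) and none higher by edgeR, while DESeq2 called 4 in each direction and edgeR without KPS replicate 2 called 2 higher and 3 lower. The constitutive cyclooxygenase gene Ptgs1 had 54.2, 45.2 and 51.8 CPM in KPS against 218, 212, 97.8 and 175 CPM in KP (-1.80 ± 0.30, adjusted p 0.0096). Idh3a, Phyh, Cat, Cda and Ptgs1 were called in every alternative.

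In serine, glycine and folate metabolism, which feeds one-carbon units to nucleotide synthesis, 1 of 29 genes was called, Gcsh of the glycine cleavage system, with 30.5, 35.8 and 46.0 CPM in KPS libraries against 57.9, 75.1, 70.5 and 68.3 CPM in KP libraries (adjusted p 0.0198, but 0.0522 without KPS replicate 2). The median log2 fold change was -0.35, and the summed level was 1131, 1288 and 1144 CPM in KPS against 1743, 1367, 1405 and 1680 CPM in KP, with no overlap but with KPS replicate 2 close to the lowest KP libraries. Of the 29 genes, 6 had KPS libraries all below KP libraries (10.1% of all genes had), and none had the reverse.

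Unconventional myosins, motors that carry cargo along actin or tether it to membranes, had 3 of 21 members called higher (14.3%, against 3.96% of all genes) and none lower by edgeR, with a median of 0.29. Myo1c had 511, 424 and 356 CPM in KPS libraries against 213, 221, 257 and 288 CPM in KP libraries, Myo1d had 183, 156 and 185 CPM in KPS against 111, 114, 69.5 and 120 CPM in KP, and Myo1h was the third. Each of the 3 lost its call when any 1 of at least 3 libraries was left out, and the count was 0 to 3 over those fits, 0 with the added macrophage term and 6 with DESeq2. Of 72 actin regulators, 4 were called higher (5.56%, against 3.96% of all genes) and 5 lower (6.94%, against 3.28%). Ezrin (Ezr), which links actin to the apical membrane, had 1752, 1774 and 1842 CPM in KPS against 1151, 1103, 1049 and 1090 CPM in KP (0.70 ± 0.13, adjusted p 0.0143), and its relative moesin (Msn) and gelsolin (Gsn) were called higher too. Tmsb10, which binds actin monomers, had 126, 85.1 and 90.1 CPM in KPS against 190, 199, 197 and 222 CPM in KP (-1.01 ± 0.16, adjusted p 0.007). Villin (Vil1), the actin bundler of brush borders, had 6.91, 3.20 and 1.27 CPM in KPS against 53.4, 18.2, 85.3 and 69.9 CPM in KP, and Cald1, Marcks and Tpm2 were called lower as well. Eps8l1, Cald1 and Tmsb10 were called in all alternatives; Ezr was not without KPS replicate 3 (adjusted p 0.0578) nor Gsn without KP replicate 1 (0.0548), and Msn, Vil1 and Tpm2 lost their call when any 1 of 4 libraries was left out, where Vil1 reached -4.71 without KPS replicate 1 against -3.88.

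Of 61 kinesin and dynein genes, 4 were called lower (6.56%, against 3.28% of all genes) and none higher by edgeR, and of 37 tubulins and tubulin modifiers 3 were called lower (8.11%) and none higher. DESeq2 called 1 gene of the tubulin list higher and 4 lower, and with the added macrophage term each list had 1 gene called lower. The tubulin gene Tubb6 had 29.98, 13.1 and 19.8 CPM in KPS libraries against 55.2, 55.0, 51.3 and 71.9 CPM in KP libraries (-1.47 ± 0.26, adjusted p 0.0108), and Mapre2, a plus-end binding protein, had 20.9, 27.5 and 30.3 CPM in KPS against 50.8, 60.4, 56.5 and 53.7 CPM in KP. The light chain gene Dynll1 had 366, 443 and 394 CPM in KPS against 534, 608, 572 and 582 CPM in KP. Summed levels of both lists overlapped between the groups. Tubb6 was called in all alternatives and Mapre2 in all but the added macrophage term (adjusted p 0.0556), and Dynll1 lost its call when any 1 of 4 libraries was left out.

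In membrane traffic, 6 of 76 vesicle exocytosis genes were called higher (7.89%, against 3.96% of all genes) and none lower by edgeR; DESeq2 called 10 higher and 4 lower, and 1 was called higher with the added macrophage term. Synaptotagmin 11 (Syt11) had 33.0, 36.3 and 30.5 CPM in KPS libraries against 12.0, 11.9, 15.3 and 11.2 CPM in KP libraries (1.40 ± 0.19, adjusted p 0.0041), and Syt12 had 73.5, 48.0 and 25.1 CPM in KPS against 8.70, 8.97, 11.7 and 18.4 CPM in KP. The SNARE genes Vamp5 and Vamp3, the active zone gene Rims1 and Cplx2 were the others. Of 57 RAB GTPases, 2 were called higher (Rab11a and Rab32, 3.51%) and none lower. Of 45 genes of vesicle coats and Golgi tethers, 4 were called lower (8.89%, against 3.28% of all genes) and none higher by edgeR, with a median of 0.03. DESeq2 called 6 higher and 5 lower, and none was called with the added macrophage term. Over fits without a single library 0 to 3 were called lower. Of the 4 called lower, Copg2 encodes a coat subunit, Tmed6 a cargo receptor of the family, and Creb3l1 and Creb3l2 membrane-bound transcription factors of the secretory pathway. Of 45 autophagy genes, 2 were called higher (4.44%), Sqstm1 (p62) and Vmp1, and none lower. Syt11 was called in every alternative, and Syt12 in all but the added macrophage term (adjusted p 0.106). Vamp5 lost its call without KPS replicate 3 or KP replicate 1 (0.08 and 0.0571), and Vamp3, Rims1 and Cplx2 when any 1 of at least 6 libraries was left out. The calls of Rab11a, Rab32, Copg2, Creb3l1, Sqstm1 and Vmp1 were each lost when any 1 of at least 4 libraries was left out; 2 to 5 exocytosis genes were called higher over fits without a single library.

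Axon guidance ligands and receptors, which also steer epithelial cell contacts, were called in both directions, with 5 of 58 higher (8.62%, against 3.96% of all genes) and 5 lower (8.62%, against 3.28%). With the added macrophage term 4 were called higher and none lower. The netrin gene Ntn4 had 25.6, 10.4 and 26.1 CPM in KPS libraries against 2.39, 2.71, 1.84 and 4.23 CPM in KP libraries (2.88 ± 0.40, adjusted p 0.0045), and the ephrin receptor gene Ephb2 had 11.1, 12.5 and 7.76 CPM in KPS against 1.07, 1.93, 1.32 and 1.75 CPM in KP. Robo1, a receptor for SLIT ligands, had 3.74, 6.55 and 10.7 CPM in KPS against 0.189, 0.00, 0.00 and 0.035 CPM in KP, whereas its ligand Slit2 had 13.9, 10.2 and 10.4 CPM in KPS against 47.6, 26.3, 74.6 and 61.5 CPM in KP (-2.19 ± 0.35, adjusted p 0.0084). The ephrin receptor Ephb4 and the ephrin ligand gene Efnb1 were called lower, with Sema4g and Plxna4. Ntn4, Ephb2 and Robo1 were called in all alternatives, Slit2, Sema4g and Plxna4 in all but the added macrophage term (adjusted p 0.0626, 0.09 and 0.116), and Efnb1 not without KPS replicate 3 (0.0648). Over fits without a single library, 3 to 4 were called higher and 3 to 6 lower.

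For growth factor and death pathways single genes are described, beside 3.96% of all genes called higher and 3.28% lower. Of 45 BMP and hedgehog genes, 1 was called higher and 4 lower (8.89%), with a median of -0.19, and the summed level was 1385, 1612 and 1637 CPM in KPS libraries against 1956, 1892, 2749 and 1993 CPM in KP libraries. Gdf15, a stress-induced secreted factor that this list shares with the ATF4 list, had 8.15, 1.07 and 4.43 CPM in KPS against 62.8, 23.9, 103 and 81.8 CPM in KP (-3.87 ± 0.69, adjusted p 0.0144; -4.65 without KPS replicate 1). Bmp5 had 33.8, 35.0 and 50.9 CPM in KPS against 11.9, 14.3, 22.1 and 18.3 CPM in KP (adjusted p 0.0168, but 0.0703 without KPS replicate 3). Of 49 genes of the FGF, PDGF, VEGF and IGF systems, 2 were called higher (Irs4 and Flt4, 4.08%) and Igfbp5 lower (2.04%). Irs4, an insulin receptor substrate, had 8.12, 1.36 and 13.0 CPM in KPS and counts in only 1 KP library (0.0602 CPM in replicate 2). Of 30 TNF superfamily genes, Tnfrsf11a (RANK) was called higher (3.33%), and Tnfrsf26 and Fas lower (6.67%). Of 48 BCL2 family, caspase and death pathway genes, the survival gene Bcl2 was called higher, with 29.3, 28.6 and 21.9 CPM in KPS against 7.69, 14.0, 11.3 and 10.0 CPM in KP (1.3 ± 0.24, adjusted p 0.0136, 0.0674 with the added macrophage term), and Bcl2l15 lower. Flt4 lost its call without KPS replicate 3 (adjusted p 0.0672), and Igfbp5, Tnfrsf11a, Tnfrsf26, Fas and Bcl2l15 each lost theirs when any 1 of at least 4 libraries was left out.

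Among receptors and channels, 2 of 69 orphan and adhesion G protein-coupled receptors were called higher (2.9%, against 3.96% of all genes) and 6 lower (8.70%, against 3.28%). The count called lower was 1 with the added macrophage term, 4 with limma-voom and 3 to 6 over fits without a single library. Lgr4, the R-spondin receptor that amplifies WNT signals, had 9.20, 15.1 and 24.3 CPM in KPS libraries against 1.58, 0.723, 1.21 and 2.52 CPM in KP libraries (3.41 ± 0.48, adjusted p 0.0048). Gpr128 was nearly absent, with 0.0275, 0.388 and 0.00 CPM in KPS against 14.1, 6.32, 61.6 and 8.15 CPM in KP. Of 105 potassium, chloride and calcium channel genes, 3 were called higher (2.86%) and 5 lower (4.76%). With the added macrophage term 2 channel genes were called higher and 1 lower. Kcne3, an accessory subunit of potassium channels, had 9.94, 19.2 and 26.2 CPM in KPS against 1.64, 2.29, 2.18 and 3.46 CPM in KP, and Orai1, the pore of store-operated calcium entry, had 52.7, 38.7 and 39.4 CPM in KPS against 84.7, 77.9, 74.5 and 90.1 CPM in KP (-0.91 ± 0.14, adjusted p 0.0081). Of 64 genes of cyclic nucleotide signalling, 2 were called in each direction. Of 33 tyrosine phosphatases, 2 were called higher and 1 lower; Ptpn2, which dephosphorylates JAK and STAT proteins, had 116, 151 and 134 CPM in KPS against 65.3, 72.1, 74.8 and 60.3 CPM in KP (0.97 ± 0.13, adjusted p 0.0041). Lgr4, Kcne3, Orai1 and Ptpn2 were called in every alternative.

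At the cell surface, single sugar and protease genes are described. Of 78 glycosyltransferases, 6 were called higher (7.69%, against 3.96% of all genes) and 3 lower (3.85%, against 3.28%). Mgat4a, which branches N-glycans, had 73.1, 141 and 191 CPM in KPS libraries against 33.9, 38.7, 59.2 and 49.6 CPM in KP libraries (adjusted p 0.017, but 0.0578 without KPS replicate 3), and the sialyltransferase gene St8sia6 had 94.5, 99.6 and 102 CPM in KPS against 191, 212, 204 and 223 CPM in KP (-1.07 ± 0.14, adjusted p 0.0035). Of 58 proteoglycan and heparan sulfate genes, 5 were called higher (8.62%) and 2 lower (3.45%). Chst13, a chondroitin sulfotransferase, had 19.4, 22.6 and 20.002 CPM in KPS against 0.441, 0.542, 2.47 and 3.22 CPM in KP. Glypican 3 (Gpc3), an oncofetal heparan sulfate proteoglycan, had 8.81, 6.89 and 8.90 CPM in KPS against 81.8, 144, 357 and 71.0 CPM in KP (-4.31 ± 0.61, adjusted p 0.0057; -3.61 without KP replicate 3), and biglycan (Bgn) had 5.42, 5.78 and 19.3 CPM in KPS against 156, 143, 54.4 and 130 CPM in KP (-3.58 ± 0.55; -4.46 without KPS replicate 3). Of 42 serine proteases, 1 was called higher and 3 lower (7.14%): Hpn, Cela1 and Habp2, a plasma hyaluronan-binding protease, which had 0.441, 0.00 and 0.00 CPM in KPS against 40.7, 19.996, 63.6 and 24.6 CPM in KP. None of 42 protocadherins was called by edgeR with all libraries (6 at an unadjusted p below 0.05), whereas limma-voom called 2 in each direction and DESeq2 1 higher and 3 lower. St8sia6, Chst13, Gpc3, Hpn, Habp2 and Cela1 were called in all alternatives, and Bgn in all but the added macrophage term (adjusted p 0.055).

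Of 75 cytosolic ribosomal protein genes, 4 were called lower (5.33%, against 3.28% of all genes) and none higher. Their direction was uniform, with 68 of 75 fold changes negative, a median of -0.25, and 42 genes with KPS libraries all below KP libraries (56.0%, against 10.1% of all genes). The summed level was 17344, 18858 and 18818 CPM in KPS libraries against 19938, 21744, 21684 and 21480 CPM in KP libraries, with no overlap. Rpl21 had 218, 268 and 254 CPM in KPS against 378, 410, 379 and 372 CPM in KP (-0.64 ± 0.13, adjusted p 0.0181), and Rpl32, Rpl28 and Rpl18 were the others called. Over fits without a single library 1 to 2 were called lower and the median ran from -0.32 to -0.25; none was called with the added macrophage term. DESeq2 called 17 lower and 1 higher, edgeR on library totals without TMM 9 lower, and edgeR with the stricter filter 8 lower. Rpl32 lost its call without KPS replicate 2 (adjusted p 0.0536), and Rpl28 and Rpl18 did so without any one of the 7 libraries. Ribosomal protein genes have many processed pseudogenes, among which reads may be divided.

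The other lists of protein production in this paragraph lay near or below the shares over all genes, 3.96% called higher and 3.28% lower. Of 73 mitochondrial ribosomal protein genes 1 was called lower (Mrpl32, 1.37%), and of 64 translation factors 1 was called in each direction (1.56%). The proteasome had 1 of 48 subunits called higher (Psma4, 2.08%) and cytosolic chaperones 1 of 48 in each direction (2.08%). Endoplasmic reticulum chaperones had 1 of 34 called higher (Ern2, 2.94%) and the ATF4 response 1 of 26 lower (Gdf15, 3.85%). Dnajb1, the HSP40 partner of HSP70, was the strongest of these, with 78.4, 107 and 93.2 CPM in KPS libraries against 196, 270, 229 and 209 CPM in KP libraries (-1.29 ± 0.16, adjusted p 0.0033), and it was called in every alternative. The summed chaperone level was 9275, 9994 and 9609 CPM in KPS against 10646, 10376, 11107 and 10855 CPM in KP. None of 20 aminoacyl-tRNA synthetases and none of 62 splicing factors was called by edgeR, DESeq2 or limma-voom, with 3 and 8 at an unadjusted p below 0.05 in edgeR. Psma4 and Ern2 lost their call when any 1 of at least 5 libraries was left out.

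**Figure D4:**
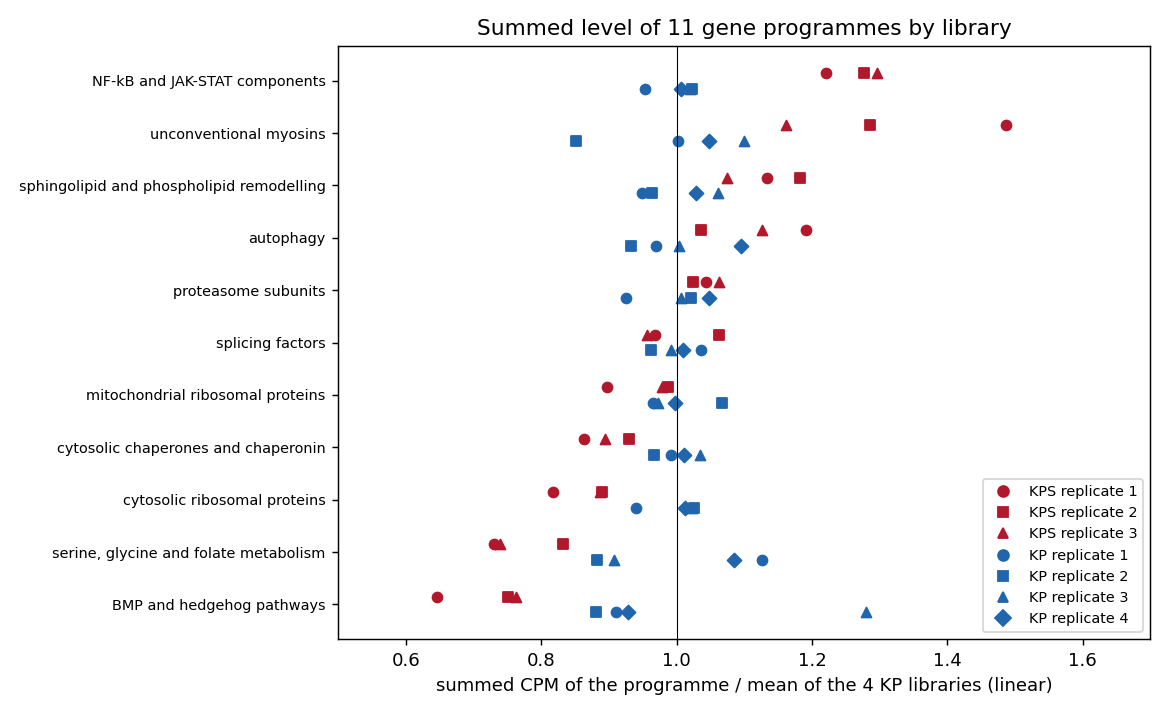
Summed CPM of 11 programmes in each library divided by the mean of the 4 KP libraries (x axis, linear), with KPS in red above KP in blue in each row. NF-kB and JAK-STAT components lie to the right in all 3 KPS libraries and cytosolic ribosomal proteins to the left, while proteasome subunits and splicing factors overlap.

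In the nucleus most programmes lay near or below the shares over all genes, 3.96% called higher and 3.28% lower. Of 346 zinc finger genes with a Zfp symbol, 4 were called higher (1.16%) and 11 lower (3.18%). Zfp462 had 0.0551, 0.0971 and 0.132 CPM in KPS libraries against 7.94, 6.38, 8.09 and 4.09 CPM in KP libraries, and Zfp809, which silences retroviral sequences, had 87.7, 64.5 and 74.6 CPM in KPS against 29.0, 36.6, 37.8 and 30.05 CPM in KP (1.18 ± 0.17, adjusted p 0.0046). Of 67 forkhead, ETS and KLF factors, 1 was called higher (Klf4) and 4 lower (5.97%), namely Etv4, Elf5, Foxa3 and Foxo1. Etv4, a target of RAS-MAPK signalling, had 28.8, 20.5 and 20.002 CPM in KPS against 37.2, 53.2, 44.5 and 55.9 CPM in KP (adjusted p 0.0152, but 0.0567 without KPS replicate 3). Of 49 basic helix-loop-helix factors, 2 were called higher, Neurod1 and Hif1a, the hypoxia factor, which had 442, 391 and 280 CPM in KPS against 172, 132, 181 and 208 CPM in KP (1.10 ± 0.18, adjusted p 0.0091, 0.0766 with the added macrophage term). Elf5 and Foxa3 lost their call when any 1 of at least 5 libraries was left out.

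Of 98 histone-modifying enzymes 2 were called higher (Setd2 and Setd8) and 1 lower (Suv420h1), and of 83 DNA repair genes 1 in each direction (Parp3 higher, Xpc lower). Of 153 TRIM, USP and F-box genes, 6 were called higher (3.92%, against 3.96% of all genes) and 3 lower (1.96%, against 3.28%). Usp35, a deubiquitinase gene, had 38.4, 40.4 and 29.5 CPM in KPS libraries against 9.39, 10.7, 7.52 and 14.2 CPM in KP libraries (1.78 ± 0.25, adjusted p 0.0045). None of 48 histone genes, 57 nuclear pore and transport genes and 22 circadian clock genes was called by edgeR (4, 7 and 4 at an unadjusted p below 0.05) or limma-voom, while DESeq2 called 2, 1 and 2 of them. Because polyA RNA was sequenced, transcripts of replication-dependent histone genes, which lack a polyA tail, are poorly captured. Zfp462 and Usp35 were called in every alternative and Zfp809 in all but the added macrophage term (adjusted p 0.0506); the calls of Setd2, Setd8 and Suv420h1 were each lost when any 1 of 6 libraries was left out.

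**Figure D5:**
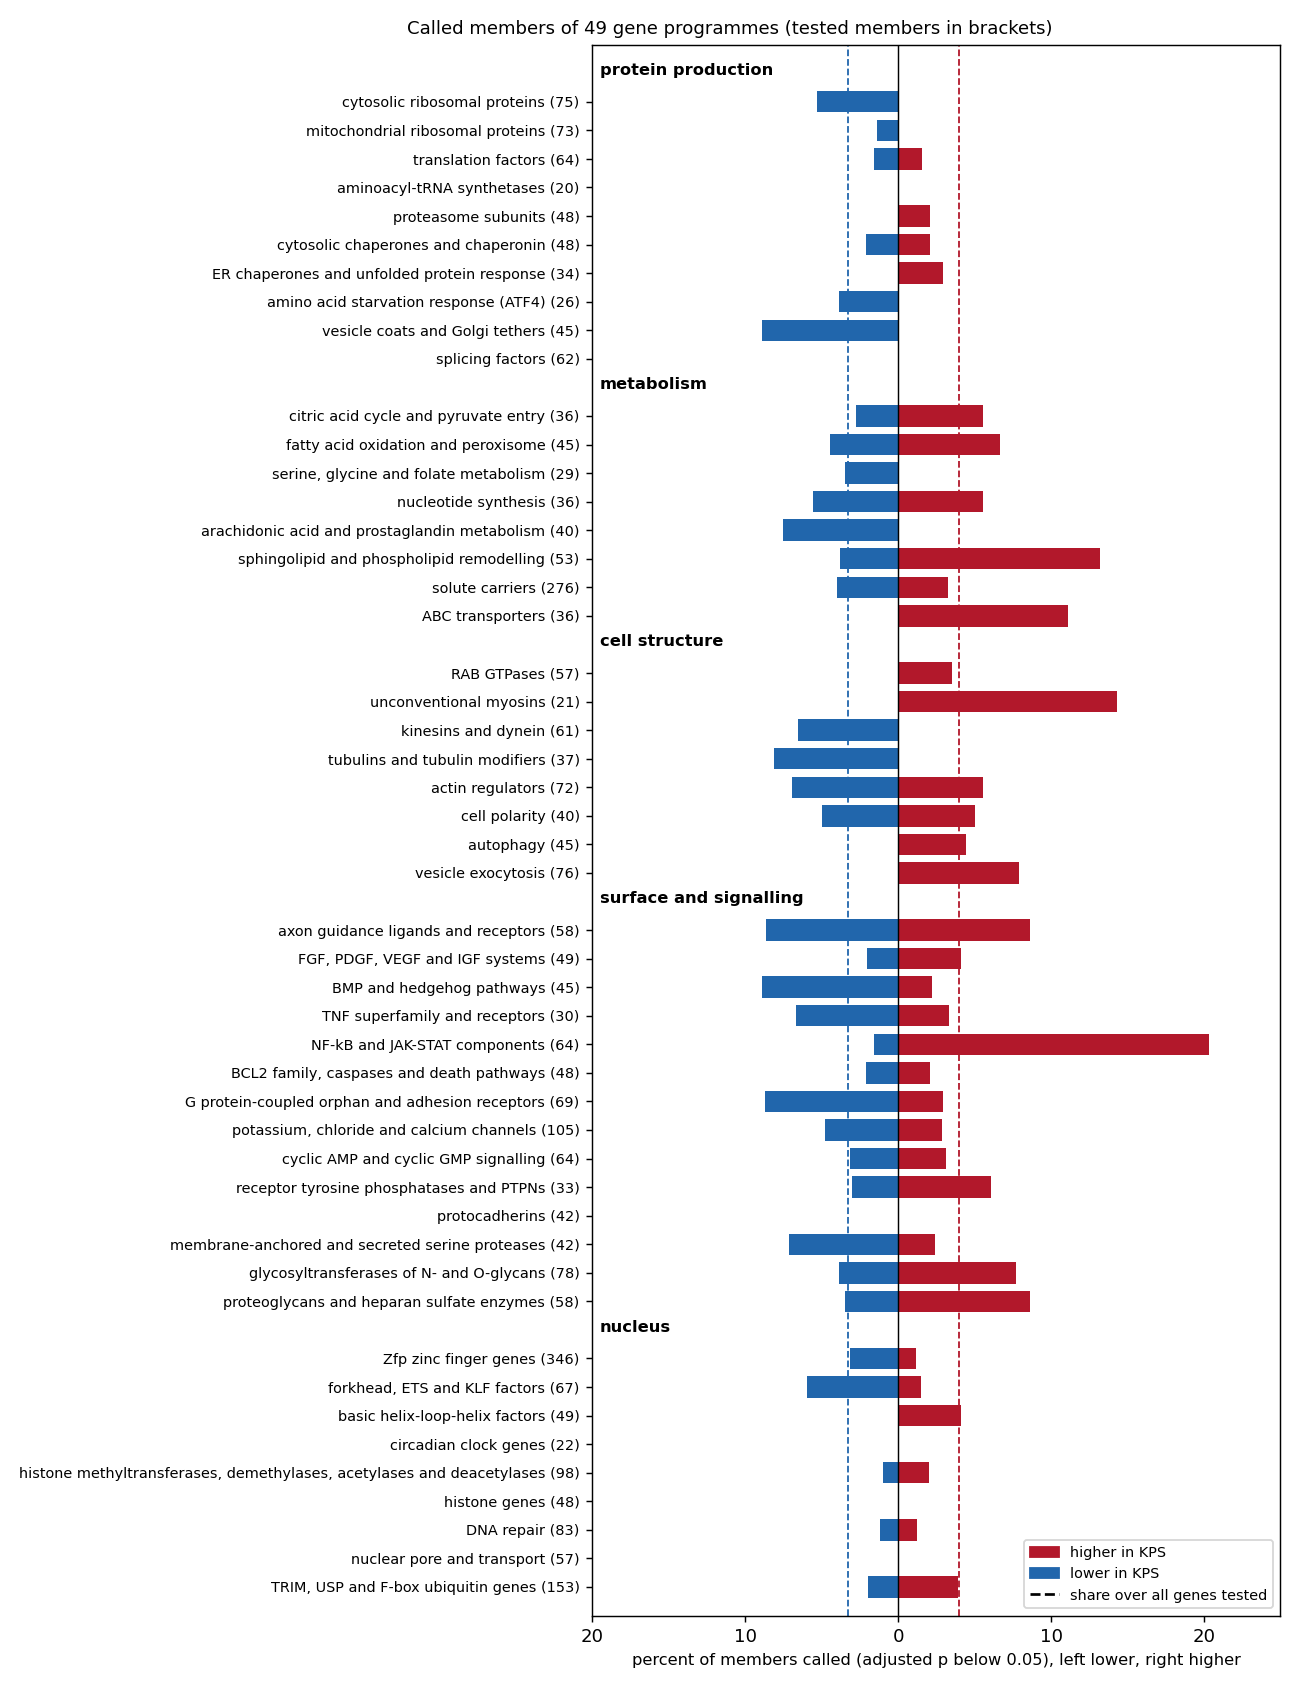
Percent of tested members called higher (red, to the right) or lower (blue, to the left) in KPS against KP for 49 of the 50 programmes (y axis, tested members in brackets). Dashed lines mark 3.96% and 3.28% of all genes tested; NF-kB and JAK-STAT components reach 20.3%.

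Called genes were also read along the chromosomes, in the RefSeq gene order, for 15532 of the 15663 tested genes. There were 9 runs of at least 3 neighbouring genes called in the same direction, with 29 genes in all. The 4 runs called lower were Gstm3, Gstm2, Gstm1 and Gstm4 on chromosome 3, Gstt3, Gstt1 and Gstt2 on chromosome 10, Akr1c18, Akr1c13 and Akr1c19 on chromosome 13, and Ankrd22, Stambpl1, Acta2 and Fas on chromosome 19. The first 3 of these are detoxification gene clusters whose members resemble each other. The fourth holds unrelated genes, of which Acta2 (smooth muscle actin) had 3.28, 2.23 and 4.52 CPM in KPS libraries against 215, 121, 55.9 and 87.3 CPM in KP libraries (-5.16 ± 0.52, adjusted p 0.0018), and Stambpl1, a deubiquitinase gene, 23.1, 26.1 and 21.6 CPM in KPS against 61.8, 56.7, 69.2 and 73.2 CPM in KP. The 5 runs called higher were Sprr2a1, Sprr2a2 and Sprr2b on chromosome 3, Reg3b, Reg1 and Reg3g on chromosome 6, Rab11a, Dennd4a and 2010321M09Rik on chromosome 9, Gosr2, Nsf and Arf2 on chromosome 11, and Ddah2, AU023871 and Ly6g6c on chromosome 17. Gosr2, Nsf and Arf2 all act in vesicle traffic, and Arf2 had 158, 107 and 139 CPM in KPS against 47.6, 57.4, 57.5 and 62.2 CPM in KP (1.26 ± 0.16, adjusted p 0.0034). Ly6g6c, a small surface protein, had 583, 478 and 551 CPM in KPS against 28.9, 39.1, 93.7 and 65.6 CPM in KP (3.24 ± 0.36, adjusted p 0.0025). Acta2, Stambpl1, Arf2, Ly6g6c, AU023871, Gstt1, Gstm1 and Gstm2 were called in all alternatives, whereas Gosr2, Nsf, Ddah2 and Akr1c18 each lost their call when any 1 of 6 libraries was left out, Ankrd22, Fas, Gstt2 and Dennd4a of 5, and Gstt3 of 7. Akr1c13, Gstm3 and Gstm4 lost theirs when any 1 of 3 was left out, Sprr2b of 4 and 2010321M09Rik of 6, Akr1c19 without KP replicate 1 (adjusted p 0.0522), and Sprr2a1 without KP replicate 4 (0.0515). Reads shared between the near-identical members of the Gstm, Gstt, Akr1c, Reg and Sprr2 families may be divided among them, and Sprr2a1 and Sprr2a2 had the same values in all 9 libraries.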

How the data were processed

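Values were estimated counts per gene that the authors deposited as 1 table, made with RSEM 1.3.1 and Bowtie 1.2.3 on mm9, per the submitters' processing notes; no source used here gives the annotation, the strand setting or any filter. PolyA RNA libraries were made with a low-input SMART-seq kit, per the labels' protocols. Estimated counts were rounded to whole numbers (largest change 0.5), and 25 symbols that had turned into dates were left as deposited. Columns were matched to samples by title. One further conditional allele, shared by all groups, some genes and 1 of the programmes are not reported here.

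All 9 libraries were fitted with edgeR 4.0.16 (R 4.3.3) by the quasi-likelihood test after TMM scaling and a filter on low counts (minimum count 10, minimum total 15), and KPS was set against KP with Benjamini-Hochberg adjustment over all 15663 genes. Alternatives were DESeq2 1.42.0, limma-voom 3.58.1, other scalings and filters, the 7 KPS and KP libraries only, macrophage terms and leaving out each library. On counts simulated for KPS against KP (15259 genes), edgeR recovered 38% of 2-fold and 91% of 4-fold changes with 7 false calls, and DESeq2 63% and 96% with 46 false calls. No pair of libraries agreed within sampling noise.

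Genes, programmes and motifs were chosen with earlier results of these data known. Named genes were Smarca4 and Trp53, the 8 largest changes in mean CPM without overlap and the 8 smallest p in each direction (these with a mean of at least 5 CPM), genes at 0 in one group, up to 3 called members of each programme with the smallest p, and runs of at least 3 neighbours; 54 further genes, and other programme members named, were added after their values were seen. Promoter windows were from RefSeq on GRCm38.p6, which differs from the build of the counts and was otherwise used for gene order only. Promoter features over all called genes were void, because only 77.0% of genes called higher and 78.4% of those called lower had a window, below the 80% minimum. Floors of 3 counts cover counting error only. Protein sequences were not analysed here.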

Additional observations from a re-analysis of the deposited data

Results flagged for a closer look

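Among the 251 genes checked one by one, 8 had 1 KP library whose gap to the nearest of the other 3, over the whole KP range, passed Dixon's critical value for 4 samples; chance alone flags about 1 in 20 groups. High values were 61.6 CPM for Gpr128 and 37.3 CPM for Prkar1b in KP replicate 3, 9.28 CPM for Cd79b, 99.6 CPM for Smpdl3a and 0.0602 CPM for Irs4 in KP replicate 2, and 0.063 CPM for Arhgap15 in KP replicate 1. Low values were 9.17 CPM for Osmr in KP replicate 4 and 6.05 CPM for Arhgef3 in KP replicate 1. The 3 KPS libraries are too few for this check.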

How the results depend on the processing

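The main counts were 1134 genes called, 621 higher and 513 lower, and no gene was called in the opposite direction in any of the 16 alternatives. DESeq2 called 2280 genes, 1227 higher and 1053 lower. With the macrophage level without Lyz1 and Lyz2 as a term, an alternative chosen after seeing the data, 388 were called, 224 higher and 164 lower. Leaving out 1 library gave 505 to 886 calls, 251 to 466 higher and 248 to 420 lower; the cause was not tested beyond the smaller number of samples. The other 7 alternatives stayed within 1.5 times of the main counts. Of the 225 called genes checked one by one, 64 kept their call in all alternatives and 91 without any 1 library. No paired analysis was possible because the replicate numbers were given in accession order and pair no samples. With 6 residual degrees of freedom and a common biological coefficient of variation of 0.430, changes under 2-fold are often missed.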
